A study of Mus musculus with 2 samples.

Results

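The genes described here are the SoxD group (Sox5, Sox6 and Sox13), the SoxE group (Sox8, Sox9 and Sox10) and the SoxF group (Sox7, Sox17 and Sox18) of the Sox transcription factor family. The 9 genes were chosen by name, and each was looked up in the authors' deposited table of genes with a Ring1b interval, which lists a gene where an interval lies in it or within 10 kb of it. Of the 9 genes, 4 were in that table. The reference used here has 21887 protein-coding genes and 20 Sox genes in all.

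The assay was chromatin immunoprecipitation with sequencing (ChIP-seq) of Ring1b, the ubiquitin ligase subunit of Polycomb repressive complex 1. Cells came from the incisor pulp of postnatal day 5 mice of the CD1 strain and were sorted for EdU, a thymidine analogue taken up in S phase. EdU was injected as 1 dose of 3.3 µg per g body weight 24 h before collection. By the labels there was 1 sample of Ring1b ChIP and 1 of input DNA, both from EdU-treated CD1 mice of that age. The tables hold no input values, so the ChIP was not set against the input, and since they hold DNA binding only, the cell type of the sorted cells was not checked by marker genes.

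The headers of the deposited files name 2 sets of ChIP intervals, rep1 and rep2, while the labels give a single ChIP sample. Whether these are biological replicates could not be settled from the files. They are called run 1 and run 2 here and were counted as 1 sample. If they are replicates, an interval called in run 2 only was found in 1 of 2 replicates. No SD and no p-value is therefore given, and exact intervals on shares cover counting error only. Run 1 held 465 intervals and run 2 held 3938, merged by the authors into 4316 regions. The height of an interval is the authors' own value, a whole number of 2 or more for which no source used here states a scaling. Sequencing depth is unknown. Coordinates are in mm10.

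Sox proteins bind DNA through an HMG box and bend it. SoxD proteins have no transactivation domain of their own and act with partners: Sox5 and Sox6 work together with Sox9 in cartilage. Sox9 is the master regulator of chondrocytes and also acts in the neural crest, from which the dental pulp mostly derives, and Sox10 maintains neural crest and Schwann cell precursors. SoxF genes act in endothelium, and Sox17 also in endoderm. Polycomb complexes bind mainly at CpG-rich starts of developmental genes and hold many of them silent.

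The promoters shown here set the start with a Ring1b interval beside starts without one. They are the 250 bases before a RefSeq start, from the RefSeq promoters of GRCm38.p6, 5′ to 3′ on the gene's strand, with every CpG dinucleotide in capitals. RefSeq promoters were matched for 4 of the 9 genes, Sox5, Sox6, Sox8 and Sox13. The Sox6 sequence (chr7:116038745-116038994, minus strand) is the one an interval overlapped. Those of Sox13 (chr1:133424213-133424462, minus strand), Sox8 (chr17:25570687-25570936, minus strand) and the Sox5 start listed inside the gene (chr6:143947107-143947356, minus strand) overlapped none.
Sox6: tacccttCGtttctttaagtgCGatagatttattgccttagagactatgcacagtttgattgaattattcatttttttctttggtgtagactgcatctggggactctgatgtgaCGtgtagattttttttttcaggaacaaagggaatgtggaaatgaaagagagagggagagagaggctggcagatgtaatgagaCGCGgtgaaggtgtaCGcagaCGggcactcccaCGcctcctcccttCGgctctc
Sox13: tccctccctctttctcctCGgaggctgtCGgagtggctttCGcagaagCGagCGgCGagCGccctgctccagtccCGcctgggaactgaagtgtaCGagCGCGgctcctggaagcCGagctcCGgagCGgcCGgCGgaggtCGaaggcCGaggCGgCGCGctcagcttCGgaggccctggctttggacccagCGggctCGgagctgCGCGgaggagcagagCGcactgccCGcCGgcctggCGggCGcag
Sox8: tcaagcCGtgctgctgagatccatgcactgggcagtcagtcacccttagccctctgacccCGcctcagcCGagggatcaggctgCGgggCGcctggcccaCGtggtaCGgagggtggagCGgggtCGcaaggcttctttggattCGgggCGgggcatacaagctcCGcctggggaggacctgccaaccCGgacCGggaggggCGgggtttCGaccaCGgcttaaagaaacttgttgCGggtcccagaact
Sox5: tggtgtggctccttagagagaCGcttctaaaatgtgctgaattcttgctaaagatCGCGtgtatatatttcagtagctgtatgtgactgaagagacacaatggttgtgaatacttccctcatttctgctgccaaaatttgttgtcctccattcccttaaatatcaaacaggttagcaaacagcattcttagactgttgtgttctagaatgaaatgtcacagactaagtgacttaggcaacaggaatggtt

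An interval was assigned to 4 of the 9 genes (44.4%, exact 95% interval 13.7 to 78.8%), against 15.8% of all protein-coding genes. The exact interval holds the background share, so at 9 genes the shares could not be told apart. All 3 groups had a gene with an interval: 2 of 3 SoxD genes, Sox5 and Sox6, 1 of 3 SoxE genes, Sox9, and 1 of 3 SoxF genes, Sox17. Sox13, Sox8, Sox10, Sox7 and Sox18 had none. Within 2.5 kb of the start in the deposited table lay an interval at 3 of the 9 genes (33.3%), Sox6, Sox9 and Sox17, against 10.4% of protein-coding genes. No exact interval was taken for this share of 9 genes, and its difference from the background was not tested.

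Heights were low to middling. Their median over the 4 genes was 4. It was also 4 over all protein-coding genes with an interval, whose heights reached 66, and 5 over all 3993 genes in the table. Sox6 was highest at 6, and 27.9% of the 3993 genes in the table reached that height. Sox17 had a height of 5, which 50.5% of the table's genes reached. Sox9 and Sox5 both had a height of 3, the value of 20.8% of the table's genes, and only 0.576% of them were lower. Heights of 5 or more were found at 2 of the 9 genes, against 7.90% of protein-coding genes, and heights of 6 or more at 1 of 9, against 4.25%.

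All 4 genes had a single interval, as did 79.3% of the genes in the table, and all 4 intervals came from run 2. Genes with run 2 intervals only made up 89.1% of the table, so this is the usual case. None of the 9 genes had a run 1 interval, against 1.73% of protein-coding genes, and none had intervals of both runs, against 0.763%. The table also gives the run 1 height over intervals that run 1 did not call. That run 1 value was 1 at Sox9, beside 3 in run 2. It was 0 at Sox6, beside 6 in run 2, 0 at Sox17, beside 5, and 0 at Sox5, beside 3. A run 1 height of 0 was given for 52.4% of all genes with run 2 intervals only, so the 3 zeros were not unusual.

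**Figure D1:**
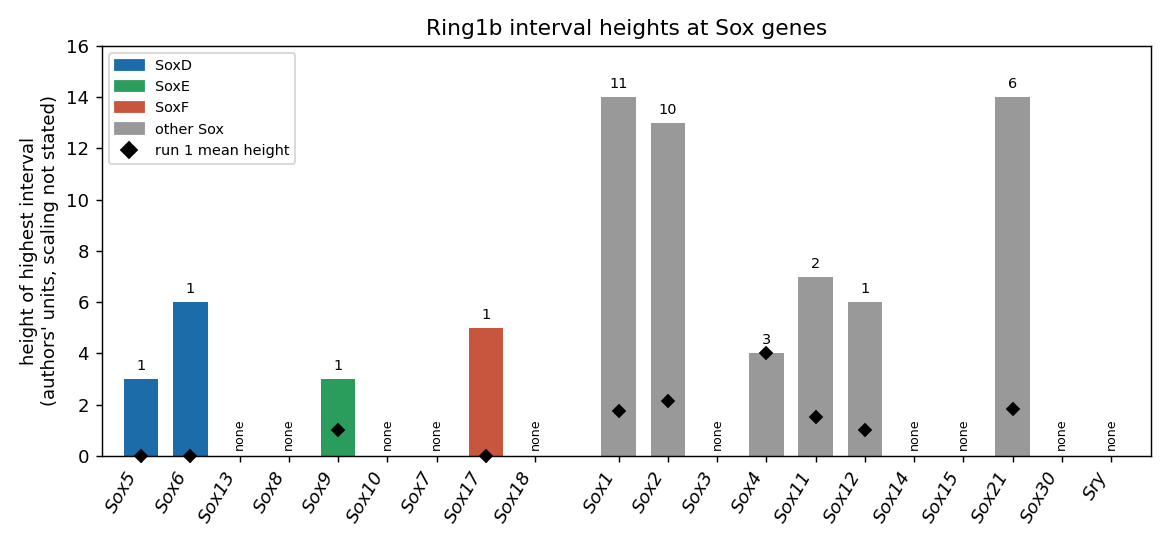
Height of the highest Ring1b interval (y axis, the authors' units) at the 9 SoxD, SoxE and SoxF genes on the left and the 11 other Sox genes on the right. Numbers over the bars are intervals assigned, diamonds are mean heights in run 1, and "none" marks genes with no interval. The 4 coloured bars stand at 3 to 6 with 1 interval each, whereas the 6 grey bars stand at 4 to 14 with 1 to 11 intervals.

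Sox6, a SoxD factor of cartilage, muscle and red cell development, had its interval directly over the start. The interval lay at chr7:116038588-116038980 (393 bp), with the summit at -40 bp, upstream of the start. It was narrow: 4.84% of the merged regions were narrower, and the median region was 671 bp wide. It reached 236 bp upstream and 156 bp downstream of the start in the deposited table and covered 236 of the 250 promoter bases printed above. RefSeq lists 6 promoters for Sox6, and the other 5, which lie further into the gene, overlapped no region. The RefSeq gene model of Sox6 begins another 2032 bp upstream of the start under the interval.

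The Sox6 interval was also assigned to a pair of other genes. LOC101055734 lies on the plus strand and begins 860 bp upstream of the deposited Sox6 start, so by the deposited models the genes run away from each other. The summit lay upstream of LOC101055734 as well, at -820 bp from its start, and was thus nearer to the deposited Sox6 start. The RefSeq gene model of Sox6 starts 1992 bp from the summit. By that model the LOC101055734 start lay inside Sox6 and was the nearer of the starts. The long noncoding RNA gene 1110006G14Rik overlaps Sox6 on the opposite strand, and the summit lay 92204 bp from its start.

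Sox9 also had its interval over the start. It lay at chr11:112782127-112782838 (712 bp), with 83 bp upstream and 628 bp downstream of the start, and its summit lay 110 bp inside the gene. In the 1402 genes whose highest interval lay over the start, the median distance of the summit from the start was 160 bp, so the Sox6 and Sox9 summits both lay nearer than that. The Sox9 interval was also assigned to Gm11681, a long noncoding RNA gene that ends downstream of Sox9 and whose start lay 16688 bp from the summit.

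A height of 3 with a single interval over the start was also found at 246 other genes. The 3 genes with an interval width closest to that at Sox9 were Clip1, a microtubule-binding protein, Tuba1b, an alpha-tubulin, and Actl6a, an actin-like chromatin remodelling subunit. Their intervals were 711, 714 and 709 bp wide. The likeness was measured on height, interval number and width in this 1 sample.

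Sox17, a SoxF factor of endoderm and arterial endothelium, had its interval just inside the gene. It lay at chr1:4495477-4496119 (643 bp), and its near edge lay 294 bp inside the start of the deposited table, with the summit 493 bp inside. The RefSeq gene model starts 1013 bp further upstream, which puts the near edge 1307 bp inside that model. The interval was assigned to no other gene.

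Sox5 stood apart in position. Its assigned interval, of height 3, lay at chr6:143978142-143978750 (609 bp), and its summit lay 230992 bp inside the gene. Of the 3993 genes in the table, 147 (3.68%) had every summit over 100 kb from the start. The interval did not overlap the RefSeq promoter of Sox5 printed above.

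The start of Sox5 depends on the gene model. The deposited table uses a model of 381143 bp, whereas the RefSeq gene model of GRCm38.p6 is 953863 bp long and starts 572719 bp further upstream. A second Ring1b region lay at that upstream start, at chr6:144781485-144782228 (744 bp). Its edge lay 59 bp and its summit 447 bp inside the RefSeq gene model. It had a height of 4, above the 3 of the assigned interval, came from run 2 only, and was assigned to no gene. With RefSeq models, Sox5 thus had a region at its outermost start. Since strand is not known here for all genes, both ends of each model were used for the background: 4 of the 9 genes had a region within 2.5 kb of either end, against 11.4% of protein-coding genes. This reading was chosen after the data were seen.

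**Figure D2:**
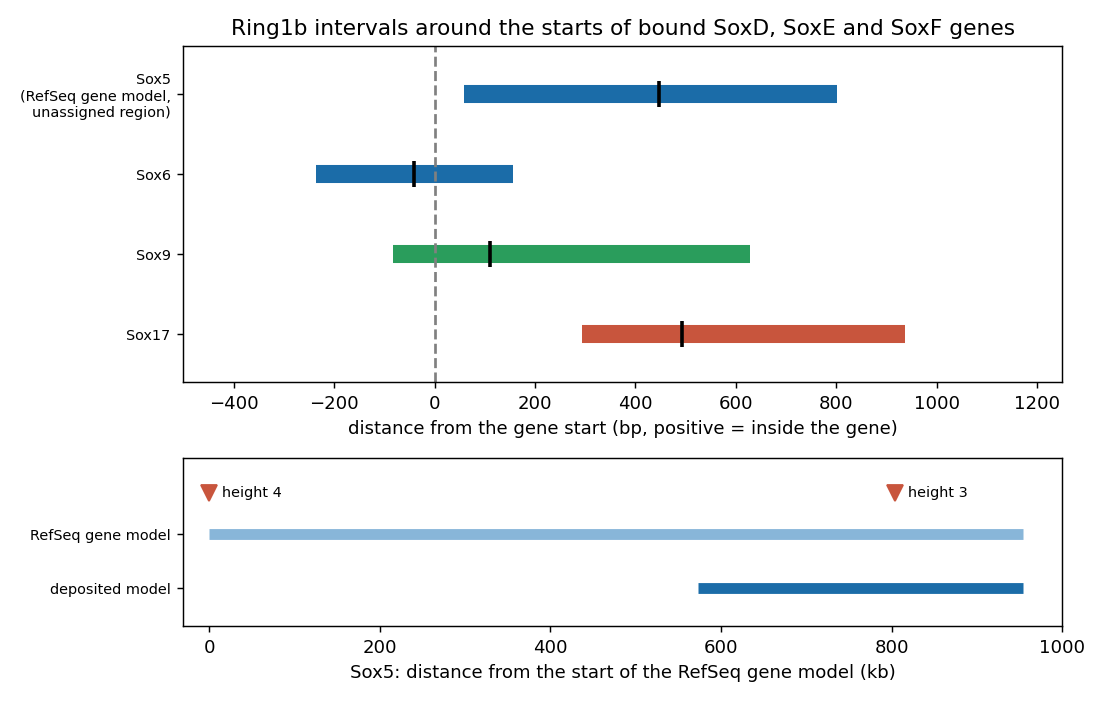
The upper plot gives the Ring1b intervals (bars) and summits (ticks) around the gene start (dashed line, x axis in bp, positive inside the gene), from the deposited start for Sox6, Sox9 and Sox17 and from the start of the RefSeq gene model for Sox5. The lower plot gives both Sox5 models (bars) and both regions (triangles) in kb from the start of the RefSeq gene model. The Sox6 and Sox9 bars cross the start, the Sox17 and Sox5 bars begin 294 and 59 bp inside it, and the deposited Sox5 model misses the region of height 4.

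The 5 genes with no interval differed in how far Ring1b lay from them. The nearest region lay 91.8 kb from Sox10, 291.4 kb from Sox8, 381.5 kb from Sox18, 475.2 kb from Sox13 and 637 kb from Sox7. For the 18260 protein-coding genes with no region within 10 kb, the median distance was 224 kb, with quartiles of 85.8 and 578 kb. Sox10 lay closer than that median and the other 4 genes lay further away, and among these Sox7 lay beyond the upper quartile. The region nearest to Sox10, of height 3, was assigned to Ankrd54.

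The distance to the next region was also taken for the 4 genes with an interval. The region lay 182.2 kb downstream of Sox9. That region had a height of 3, was called in run 1 only and was assigned to no gene, and a total of 3 regions lay within 1 Mb of Sox9. At Sox17 the next region lay 1.38 Mb upstream, so its own was the only 1 within 1 Mb. The next region lay 402.7 kb from Sox6 and 660.9 kb from the RefSeq gene model of Sox5.

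**Figure D3:**
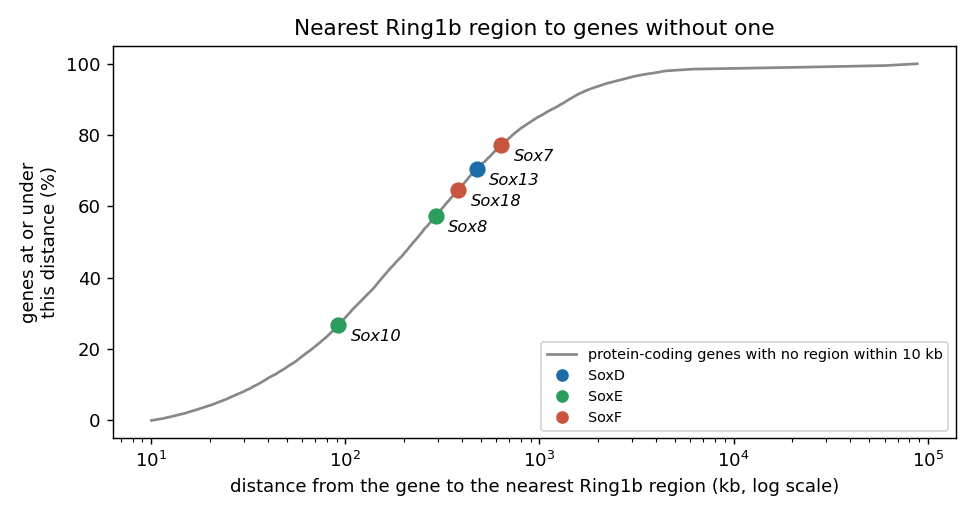
Cumulative share (y axis, %) of the protein-coding genes without a Ring1b region within 10 kb, by distance to the nearest region (x axis, kb, log scale). Dots mark the 5 SoxD, SoxE and SoxF genes without an interval, which run from Sox10 at 91.8 kb to Sox7 at 637 kb.

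CpG content was set beside these calls for the genes with a listed promoter. Among 32851 RefSeq promoters, 1887 (5.74%) overlapped a Ring1b region in the 250 bases before the start. Overlapped promoters had a median of 23 CpG dinucleotides, with quartiles of 16 and 30, and the other promoters had a median of 5, with quartiles of 2 and 14. The overlapped Sox6 promoter held 9 CpG, fewer than most: 6.25% of overlapped promoters held fewer. In the class of 6 to 9 CpG, 2.38% of promoters were overlapped.

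The promoters of Sox13 and Sox8, with the most CpG of those listed for these genes, overlapped no region. Sox13 held 31 CpG, more than 94.8% of all promoters, and 24.7% of the promoters with 30 to 39 CpG were overlapped. Sox8 held 18 CpG, in a class of 15 to 19 of which 10.3% were overlapped. The listed Sox5 promoter held 3 CpG, and the 5 further Sox6 promoters held 1 to 10. The Sox6 promoter with 10 CpG is the next one into the gene and had no region, so within Sox6 the overlapped start was not the one with the most CpG. CpG count is a description of the letters in these windows, and its part in the calls was not tested.

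**Figure D4:**
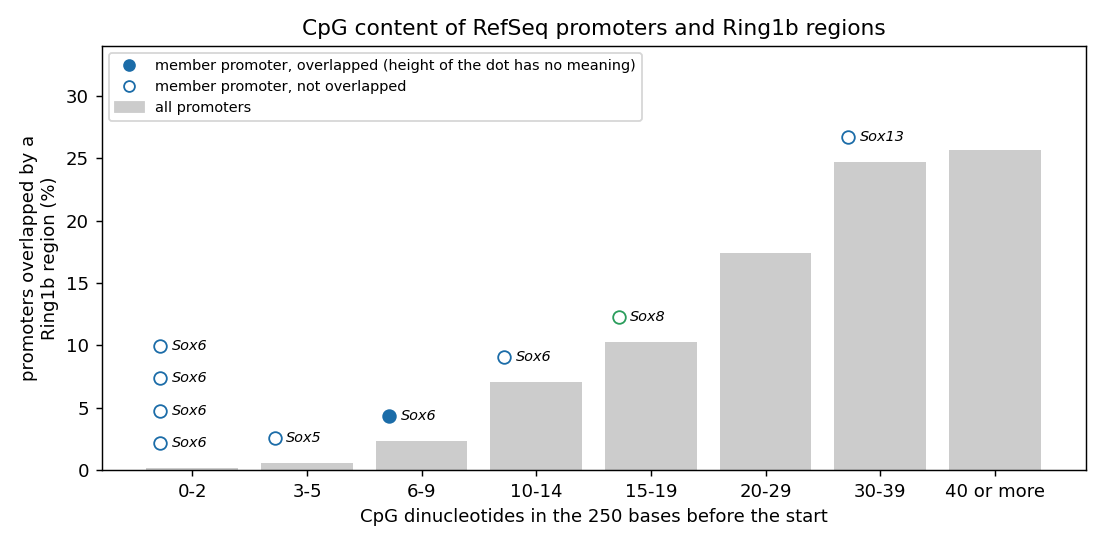
Share of RefSeq promoters overlapped by a Ring1b region (y axis, %) by the number of CpG dinucleotides in the 250 bases before the start (x axis). Grey bars are all promoters, and dots are the 9 listed promoters of Sox5, Sox6, Sox8 and Sox13, filled where overlapped. The share runs up to 25.6% at 40 or more CpG, while the 1 filled dot, Sox6, lies in the class of 6 to 9.

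The other Sox genes were set beside these. Of the 11 SoxA, SoxB, SoxC, SoxG and SoxH genes, 6 had an interval (54.5%, exact 95% interval 23.4 to 83.3%), so both shares lay within the other's interval. Median height was 4 over the 4 SoxD, SoxE and SoxF genes with an interval and 10 over the 6 other Sox genes. Sox1 and Sox21, SoxB genes of neural progenitors, reached 14 with 11 and 6 intervals. The highest Sox1 interval had its summit at -9695 bp from the start, and another Sox1 interval lay over the start. Sox2, the SoxB factor of stem and neural progenitor cells, reached 13 with 10 intervals, 1 of which came from run 1. The SoxC genes stood lower: Sox11 reached 7 with 2 intervals, Sox12 reached 6 with 1 and Sox4 reached 4 with 3. Among all Sox genes, heights above 7 were thus found at Sox1, Sox2 and Sox21 only. Sox3, Sox14 and Sox15 had none. The difference in height was not tested, since genes of 1 sample are not replicates.

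The genes that these factors act on or with were also looked up, in lists written with earlier results of these data known. Of 13 cartilage genes controlled by Sox9, Sox5 and Sox6, 3 had an interval (23.1%, exact 95% interval 5.04 to 53.8%), against 15.8% of protein-coding genes. Fgfr3, a growth factor receptor that slows chondrocyte growth, reached 6. Col2a1, the main cartilage collagen and the best known Sox9 target, had a height of 4 from an interval at its start. Col11a2, another cartilage collagen, also had 4, from an interval away from the start. Acan, Col9a1 and Col9a2 had none, and the median height of the 3 genes was 4.

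Of 13 neural crest and glial genes around Sox10, 6 had an interval (46.2%, exact 95% interval 19.2 to 74.9%), against 15.8% of protein-coding genes, and their median height was 9, against 4. Foxd3, a factor of premigratory neural crest, reached 14 with 6 intervals. Pax3, a Sox10 partner in melanocyte development, and Tfap2a, a neural crest specifier, both reached 9. Snai2, Mitf and Ednrb had none. Sox10, as given above, had none.

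Of 13 endothelial genes around the SoxF factors, 4 had an interval (30.8%), against 15.8% of protein-coding genes, and their median height was 4.5. The exact 95% interval of that share, 9.09 to 61.4%, holds the background share. Nr2f2, a factor of venous identity, reached 11 with 9 intervals, none of them within 2.5 kb of its deposited start. Prox1, the lymphatic regulator that Sox18 switches on, reached 5 with 4. The Notch ligand Dll4 and the receptor Notch4 had 4, at Notch4 from an interval away from the start. The receptors Flt4 and Kdr and the junction gene Cdh5 had none.

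Of 9 endoderm genes around Sox17, 8 had an interval (88.9%, exact 95% interval 51.8 to 99.7%), against 15.8% of protein-coding genes, and their median height was 10, against 4. Gata6 reached 17, Foxa1 reached 14 and Foxa2 reached 10, all factors of early endoderm and its organs. Mixl1 was the 1 gene without an interval. Sox17, at 5 with 1 interval, stood below 7 of these 8 genes in height. The lists were written with earlier results of these data known, so these shares are descriptions, and their exact intervals cover counting error only. The differences between these lists, and between them and all genes, were not tested.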

How the data were processed

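One Ring1b ChIP sample and 1 input sample are labelled. BWA, SICER and build mm10 are named in the submitters' processing notes, with no versions or settings. Per the file headers, the authors deposited summits, intervals per run and merged regions, and a gene table. The height of an interval is a signal in the gene table the authors deposited, and a score in their deposited interval file. The third deposited file, of browser addresses, holds no values.

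Intervals were joined to genes by the deposited names with Python 3.11.15, numpy 2.4.6, pandas 2.3.3, scipy 1.17.1 and matplotlib 3.10.9, with a minimum overlap of 1 bp, and the overlap code was tested on simulated data. Exact intervals are Clopper-Pearson at 95%. Gene models, promoters and the 21887 protein-coding genes came from RefSeq GRCm38.p6, the build mm10 names. From RefSeq, a start is the outermost end of the gene on its strand.

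The members, the lists and the alternatives were chosen with earlier results of these data known. Named genes were all 9 members, genes sharing their intervals, the 3 genes most like Sox9, and up to 4 bound and 3 unbound genes per list. Some genes that this rule takes are named nowhere here, and Sox4 and Sox12 are named outside it.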

Additional observations from a re-analysis of the deposited data

How the results depend on the processing

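No paired analysis was possible because each group is 1 sample. A stricter height left 2 of the 4 genes with an interval at a cutoff of 5 and 1 at a cutoff of 6, and run 1 by itself left 0. Of the 3 genes with an interval at the start, 1 was left at a cutoff of 6 and 0 in run 1. The median height was 5.5 at a cutoff of 5 and 6 at a cutoff of 6, as the cutoffs themselves require, and 4.5 with RefSeq models. Run 1 gives no median, as it has no interval at these genes. It held 465 intervals in all, against 3938 in run 2. The 4 genes were also found in run 2 by itself, with gene bodies only and with RefSeq models, where 16.6% of protein-coding genes had a region within 10 kb. The 3 genes at the start were also found with windows of 1, 5 and 10 kb and by interval midpoint, and outermost RefSeq starts gave 4. RefSeq models were tried after seeing the data.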

Other observations

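The Sox5 region at the outermost RefSeq start was 1 of 34 regions of the same kind. Of the 552 regions assigned to no gene in the authors' table, 70 (12.7%) lay inside a protein-coding RefSeq model, and these 34 lay within 2.5 kb of the outermost start of a protein-coding gene whose strand is known here, at 29 genes in all. The table held 13 of these genes, Sox5 among them, through another interval, and did not hold the other 16. The genes named next were chosen after their values were seen. At Tbx15, a T-box gene of limb and craniofacial skeleton, 4 such regions had heights of 4 and 5. At Foxp1, a forkhead gene, 1 reached 7. Prdm1, a zinc finger repressor of B cell and germ cell fate, is not in the authors' table and had a region of height 7 at its RefSeq start. Among 3461 protein-coding genes in the table, the RefSeq model started over 10 kb upstream of the deposited start in 133 (3.84%) and over 100 kb upstream in 30, Sox5 among them.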
